A study of Mus musculus with 6 samples.

Results

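MHC class I antigen presentation was described here through 10 mouse genes: the regulator Nlrc5, the heavy chain genes H2-K1 and H2-D1, the light chain gene B2m, the immunoproteasome genes Psmb8, Psmb9 and Psmb10, the peptide transporter genes Tap1 and Tap2, and Tapbp, which encodes tapasin. The genes were chosen by name, and every probe set annotated with exactly 1 of these symbols was taken, which gave 27 of the 45101 probe sets and 10 of the 18194 genes measured through such probe sets. RNA came from sorted left ventricular cells of Black Swiss males, 8 to 10 weeks of age, 1 week after transverse aortic constriction (TAC), a narrowing of the aorta that loads the ventricle with pressure, or after a sham operation. Per the series' design text, 3 mice had TAC and 3 had a sham operation. The groups were Tie2cre lineage traced fibroblasts after TAC and at sham, Tie2cre non-lineage traced fibroblasts after TAC and at sham, and endothelial cells after TAC and at sham, with 1 Affymetrix array in each of the 6 groups. The labels give the Tie2cre allele for the fibroblasts and state no lineage for the endothelial cells. Tie2cre expresses Cre recombinase under control of Tek, the gene of an endothelial receptor, so the label marks cells of a lineage in which that promoter was once active and does not read out the present state of the cell. The sorting markers, the reporter allele and any pooling of mice are not stated in the labels.

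MHC class I molecules display peptides from proteins made inside the cell to CD8 T cells. The immunoproteasome, in which Psmb8, Psmb9 and Psmb10 replace the standard catalytic subunits, cuts these peptides, the TAP transporter carries them into the endoplasmic reticulum, and tapasin holds the empty heavy chain with its B2m light chain at the transporter until a peptide binds. Nlrc5 is a transactivator that is itself induced by interferon gamma and is recruited to class I promoters by a protein assembly on the neighbouring X and Y boxes, while Ciita does the same for class II genes. In the heart, vascular endothelial cells are known for strong class I display.

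The promoter letters that Nlrc5 and the interferon-activated factors are known to work through are shown first, because these genes were compared as a group. Of the 10 genes, 8 were in the RefSeq promoter table (GRCm38.p6), and the 250 bases before each start site were searched on both strands; Nlrc5 and Tap2 were not. H2-K1, H2-D1 and B2m each held an X2 box core (TGACG) and the reverse of a Y box (ATTGG, for CCAAT) with their first letters 25 bases apart, a spacing chosen after these sequences had been seen. The 3 stretches from the X2 core to the Y box are printed 5′ to 3′ on the gene's strand with both cores in capitals, from chr17:34000359-34000388 (minus strand) for H2-K1, chr17:35262993-35263022 (plus strand) for H2-D1 and chr2:122147609-122147638 (plus strand) for B2m.
H2-K1: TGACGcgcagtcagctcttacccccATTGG
H2-D1: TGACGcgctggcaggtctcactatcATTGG
B2m: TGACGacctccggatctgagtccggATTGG

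The H2-K1 and H2-D1 stretches were identical at 23 of 30 bases, B2m and H2-K1 at 13 and B2m and H2-D1 at 12. Of all 32851 promoters in the table, 30 held this pair at this spacing, or 0.0913%. The class I-like heavy chain gene H2-M3 was also among them. The X2 core alone was in 5 of the 8 genes and 17.8% of all promoters, and CCAAT in 6 of 8 and 33.8%. A kappa B like match (GGG, 5 free bases, CC) was in 5 of 8 and 45.8%, and it overlapped no match of another motif. The interferon response element (GAAA, 2 free bases, GAAA) occurred only in B2m (2.98% of all promoters), and the GAS element TTCNNNGAA only in Psmb8 (7.02%). A match describes letters and is not evidence of binding.

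Longer stretches are shown for B2m, which held an interferon response element upstream of its X2 and Y cores, for the interval shared by Psmb9 and Tap1, and for Psmb8, which was called between cell types below. B2m covers chr2:122147437-122147686 (plus strand), with its element at -139 to -130 from the start. The Psmb9 and Tap1 genes are transcribed away from each other from the ends of chr17:34187331-34187555, printed on the plus strand, which is the strand of Tap1, so their matches are the same letters. Psmb8 covers chr17:34197945-34198194 (plus strand), with its GAS element at -97 to -89. Capitals mark X2, Y, interferon response and GAS matches.
B2m: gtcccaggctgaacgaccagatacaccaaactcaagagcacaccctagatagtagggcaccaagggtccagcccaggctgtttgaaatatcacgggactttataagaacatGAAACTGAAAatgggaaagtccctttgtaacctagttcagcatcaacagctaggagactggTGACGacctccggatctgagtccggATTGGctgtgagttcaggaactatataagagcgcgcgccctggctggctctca
Psmb9 and Tap1: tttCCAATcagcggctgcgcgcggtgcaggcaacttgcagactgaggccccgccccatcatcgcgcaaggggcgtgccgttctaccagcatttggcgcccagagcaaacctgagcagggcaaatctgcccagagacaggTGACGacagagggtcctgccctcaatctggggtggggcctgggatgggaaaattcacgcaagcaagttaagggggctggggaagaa
Psmb8: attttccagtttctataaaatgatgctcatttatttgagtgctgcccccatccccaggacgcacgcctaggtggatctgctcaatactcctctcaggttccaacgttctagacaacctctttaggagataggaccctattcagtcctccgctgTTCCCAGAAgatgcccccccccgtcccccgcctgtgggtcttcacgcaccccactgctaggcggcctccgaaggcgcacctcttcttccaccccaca

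**Figure D1:**
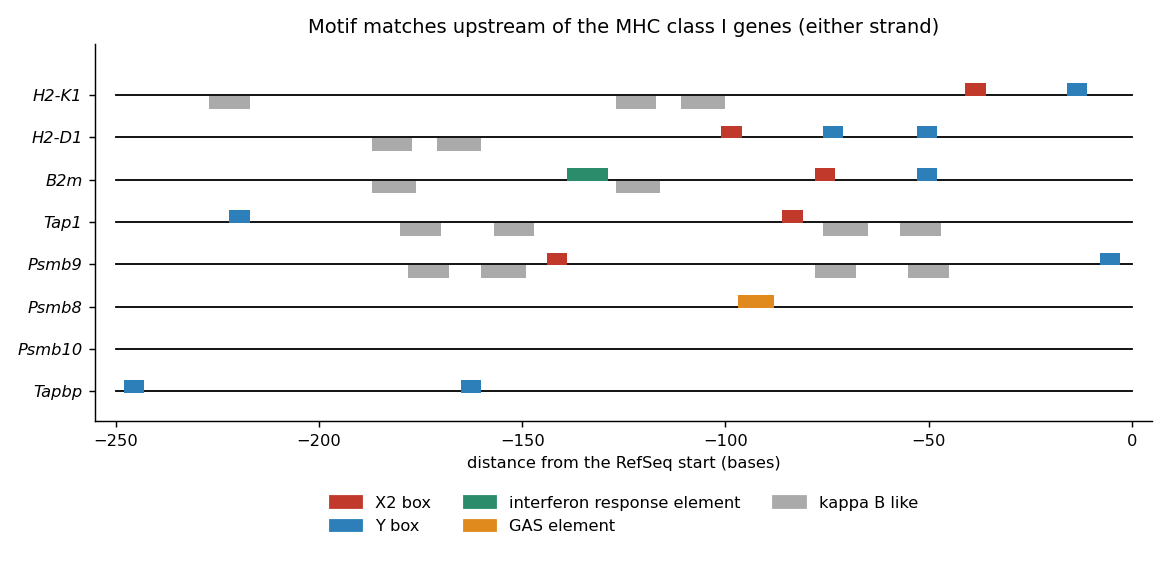
Positions of motif matches in the 250 bases before the RefSeq start site of each gene in the promoter table; the x axis is the distance from the start in bases, each line is 1 gene, and box colour gives the motif. The X2 and Y boxes of H2-K1, H2-D1 and B2m stand at one spacing but at different distances from the start, and Psmb8 holds only the GAS element.

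Levels are log2 probe set intensities, 1 array per group, and each gene is represented by its brightest probe set unless stated. A gene entered a comparison if its level exceeded the array median on 1 or more of the arrays in it, which held for all 10 genes. In limma, 11 of 12 endothelial markers were called lower in fibroblasts, where 6.50% of all genes were. In the other direction 4 of 10 fibroblast markers were called higher there, where 11.5% of all genes were. Tie1 and Robo4, among the called endothelial markers, passed the filter only through the endothelial arrays, so their calls are a description of that choice. The endothelial TAC array also carried fibroblast transcripts: summed intensity of the fibroblast markers was 15.52 on the endothelial TAC array and 11.67 on the endothelial sham array, against 16.65 to 16.83 on the fibroblast arrays. The T, B and NK cell list, which includes Ifng, had 13 of its 14 measured genes above the median on no array, and 8 of 16 macrophage and dendritic cell markers were above it on no array. The spike-in hybridization control bioB read 8.78 to 9.42 on the fibroblast arrays and 11.19 and 11.36 on the endothelial TAC and sham arrays, a difference of -2.18, so a technical difference ran along with cell type. The bioC, bioD and cre controls differed less, by -0.86, -0.28 and -0.23. The 18S ribosomal RNA control read 12.04 on the untraced fibroblast TAC array and 14.11 to 14.64 on the other arrays. Beta-actin read 13.33 to 13.52 on the fibroblast arrays and 13.99 on both endothelial arrays, a difference of -0.56. Gapdh differed by -0.13. The part of these control differences in the values below was not tested. In the main limma fit, the 2 values of a cell type were its TAC value and its sham value. The spread behind each SE and p-value therefore includes the difference between surgeries. The p-values below reflect the spread between these samples alone, and that spread may be technical. In sorted bulk RNA, fewer cells of a type and less RNA per cell cannot be told apart.

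The first comparison asks how the presentation genes differ between fibroblasts and endothelial cells. Psmb9 and Psmb8 were lower in fibroblasts by 5.21-fold and 3.57-fold, and these were the 2 of the 10 genes that were called, that is, had a Benjamini-Hochberg adjusted p under 0.05 in limma across 12257 genes and at least a 2-fold difference. Among all genes, 6.50% were called in this direction and 11.5% in the other, in which none of the 10 was. For 8 of the 10 genes, Tap2 and Tapbp excepted, all 4 fibroblast arrays lay below both endothelial arrays, against 19.9% of all genes, and for none did they lie above both, against 37.8%. The median difference of the 10 genes was -0.77, fibroblast minus endothelial, and that of all genes 0.22.

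Psmb9, the immunoproteasome subunit that replaces Psmb6, stood at 9.97 in traced and 9.76 in untraced fibroblasts after TAC and at 10.91 and 10.90 at sham, against 12.48 in endothelial cells after TAC and 13.05 at sham. Every fibroblast array was below every endothelial array, and within each cell type the TAC arrays were the lower ones. The fitted difference was -2.38 ± 0.445 (SE, limma adjusted p = 0.0309, 2 values per cell type). Psmb8, which replaces Psmb5, had 10.14 and 10.13 in traced and untraced fibroblasts after TAC and 10.56 and 10.92 at sham, against 12.23 and 12.32 in endothelial cells after TAC and at sham. The fibroblast arrays again lay below both endothelial arrays, which were close to each other. Its fitted difference was -1.84 ± 0.294 (SE, limma adjusted p = 0.0223).

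Psmb10, the counterpart of Psmb7, had 10.83 and 10.47 in traced and untraced fibroblasts after TAC and 11.40 and 11.46 at sham, against 11.79 and 12.06 in endothelial cells after TAC and at sham. The groups did not overlap, but the endothelial TAC array was close to the sham fibroblasts. Its fitted difference of -0.89 ± 0.347 (SE) was not called (limma adjusted p = 0.150). The standard subunits lay above 0 without passing the test: Psmb5 differed by 0.52 ± 0.421, Psmb6 by 0.46 ± 0.285 and Psmb7 by 0.11 ± 0.231 (SE, limma adjusted p = 0.423, 0.316 and 0.758). On the TAC arrays alone Psmb5, Psmb6 and Psmb7 differed by 0.03, 0.18 and 0.03, where the median of all genes was 0.14. On the sham arrays they differed by 1.01, 0.73 and 0.19, where that median was 0.28. None of the 9 measured genes on the list of standard catalytic subunits, activators and assembly factors and none of the 11 core subunit genes was called in either direction.

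Nlrc5 had the largest fitted difference of the 10 genes and the largest SE. It stood at 6.32 in traced and 6.78 in untraced fibroblasts after TAC and at 6.80 and 7.37 at sham, against 8.62 in endothelial cells after TAC and 10.79 at sham. In order, the traced TAC array was lowest, the untraced TAC and traced sham arrays were almost level, and untraced sham, endothelial TAC and endothelial sham followed, with no replicate to say which steps exceed the spread of a group. Both traced arrays lay below their array median, where RMA tends to compress differences. The fitted difference was -2.88 ± 0.768 (SE), 7.39-fold lower in fibroblasts, and was not called (limma adjusted p = 0.0679), with its 2 endothelial values far apart. Set against the endothelial array of the same surgery, the fibroblast mean was 4.19-fold lower after TAC and 13.01-fold lower at sham. Without the endothelial TAC array the difference was -3.97 and was called (limma adjusted p = 0.0148), while Psmb8 at -1.88 and Psmb9 at -2.66 were then not called (limma adjusted p = 0.0505 and 0.0536). That fit has a single endothelial value, which is assumed to vary like the fibroblast values.

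None of the transporter and tapasin genes was called. Tap1, a subunit of the peptide transporter, had 9.32 and 9.51 in traced and untraced fibroblasts after TAC and 8.43 and 8.96 at sham, against 9.91 and 10.22 in endothelial cells after TAC and at sham. Its fibroblast arrays lay below both endothelial arrays, with a fitted difference of -1.01 ± 0.335 (SE, limma adjusted p = 0.107). Tap2, the partner subunit, had 8.76 and 8.81 in traced and untraced fibroblasts after TAC and 8.93 and 9.12 at sham, against 8.89 and 9.43 in endothelial cells after TAC and at sham, so its groups overlapped. Tapbp had 12.70 and 12.73 in traced and untraced fibroblasts after TAC and 12.98 and 12.99 at sham, against 12.91 and 13.32 in endothelial cells after TAC and at sham, and also overlapped. The fitted differences of Tap2 and Tapbp were -0.26 ± 0.288 and -0.26 ± 0.269 (SE, limma adjusted p = 0.558 and 0.519). The second Tapbp probe set did not overlap: it had 9.95 and 9.62 in traced and untraced fibroblasts after TAC and 10.65 and 10.54 at sham, against 10.97 and 11.67 in endothelial cells after TAC and at sham. The mean of both Tapbp probe sets differed by -0.70 ± 0.320 (SE) and was not called (limma adjusted p = 0.198).

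The 3 genes of the displayed molecule were bright on every array. H2-K1, a classical heavy chain, had 12.81 and 13.03 in traced and untraced fibroblasts after TAC and 13.17 and 13.25 at sham, against 13.52 and 13.89 in endothelial cells after TAC and at sham. H2-D1, the other classical heavy chain measured, had 13.01 and 13.17 in traced and untraced fibroblasts after TAC and 13.50 and 13.52 at sham, against 13.76 and 14.16 in endothelial cells after TAC and at sham. B2m, the light chain, had 13.93 and 14.10 in traced and untraced fibroblasts after TAC and 14.02 and 13.90 at sham, against 14.20 and 14.42 in endothelial cells after TAC and at sham. Groups did not overlap for any of the 3, but the fitted differences were small: -0.64 ± 0.264 for H2-K1, -0.66 ± 0.287 for H2-D1 and -0.32 ± 0.227 for B2m (SE, limma adjusted p = 0.166, 0.180 and 0.364).

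**Figure D2:**
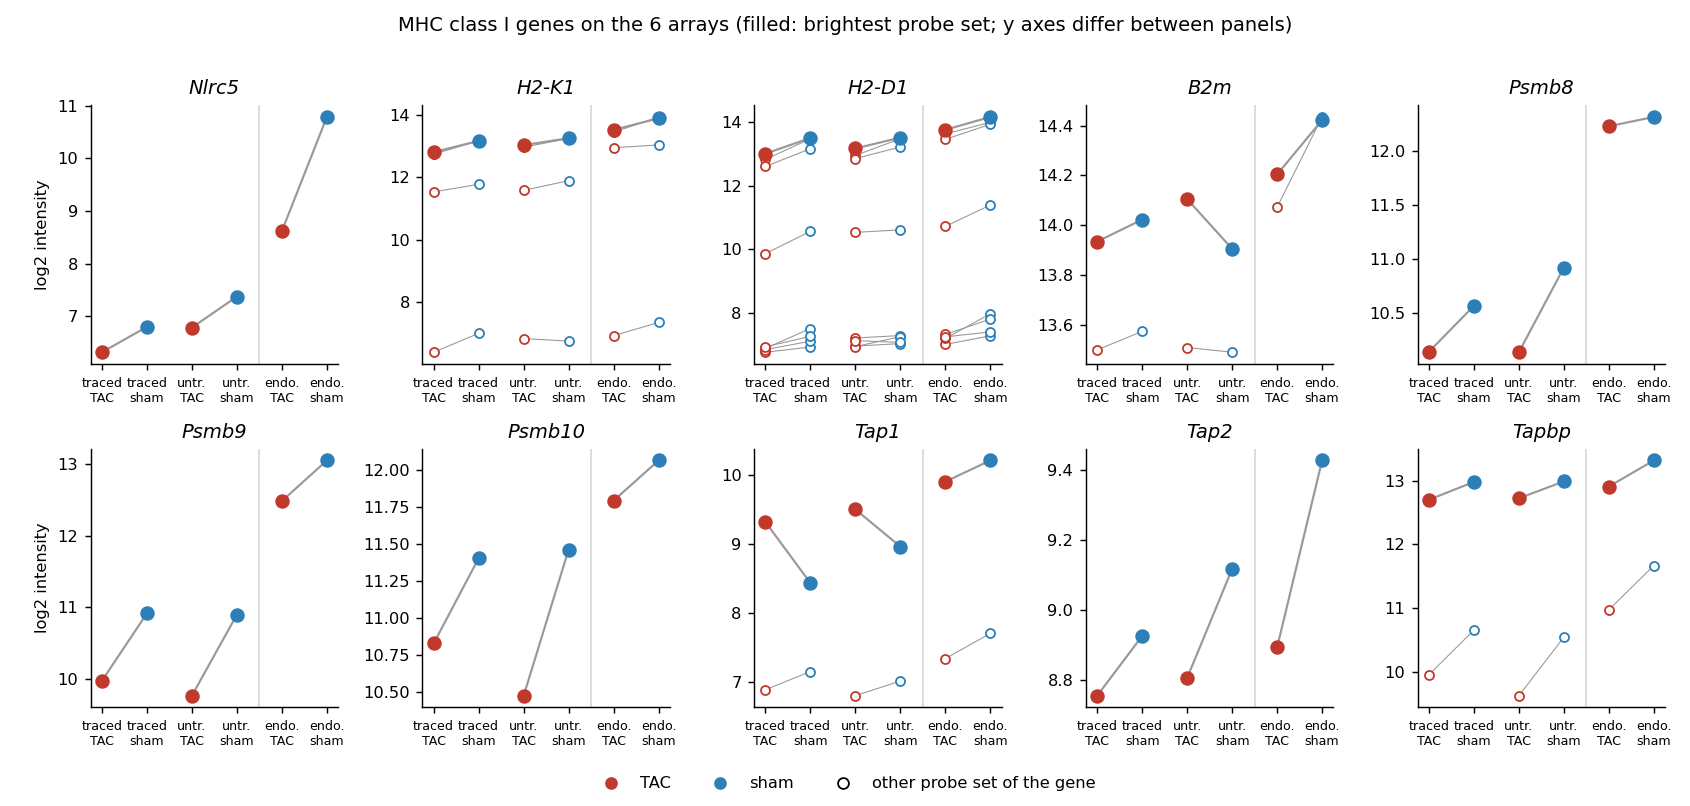
Log2 probe set intensity (y axis, with a range of its own in each panel) of the 10 genes on the 6 arrays, TAC left of sham within each population; filled points are the brightest probe set and open points the gene's other probe sets that lie above the array median on at least 1 array. Nlrc5 stands at 8.62 and 10.79 in endothelial cells after TAC and at sham, and at most 7.37 in fibroblasts.

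**Figure D3:**
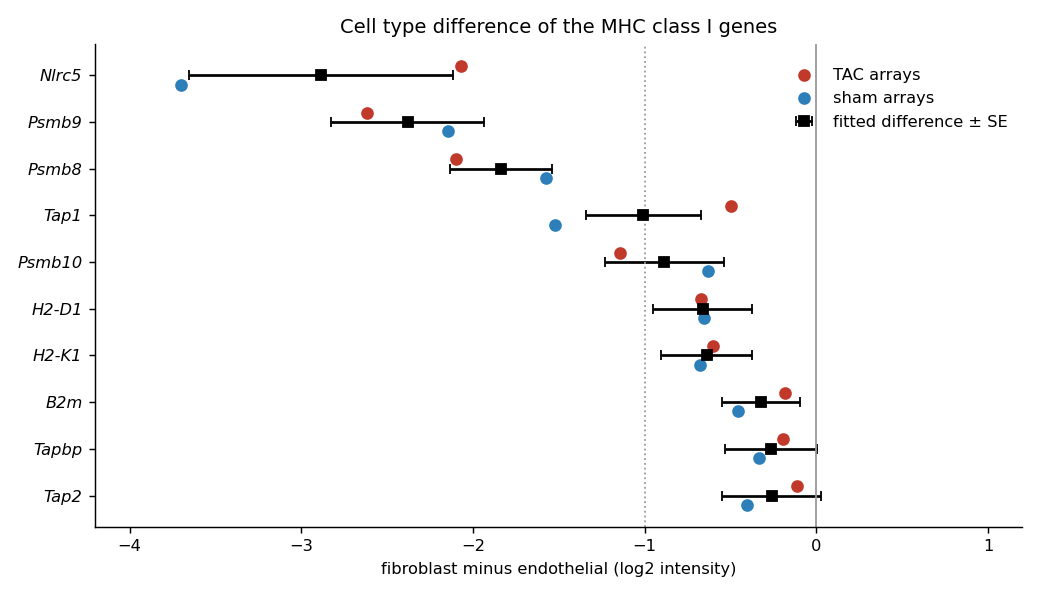
Fibroblast minus endothelial difference in log2 intensity (x axis) for each of the 10 genes; black squares with bars are the fitted difference ± SE, red points compare the TAC arrays, blue points the sham arrays, and the dotted line marks 2-fold lower in fibroblasts. All points lie below 0, and the surgeries are farthest apart for Nlrc5, at -2.07 after TAC and -3.70 at sham.

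With surgery added as a block, that is, comparing cell types within each surgery, Nlrc5 was called as well (limma adjusted p = 0.00543), which made 3 of the 10 genes against 9.09% of all genes. The block fit leaves fewer residual degrees of freedom than the main fit and assumes the same surgery effect in both cell types. For Nlrc5 its SE was 0.420, against 0.768 in the main fit. The Nlrc5 TAC difference, however, was -0.54 in fibroblasts and -2.17 in endothelial cells. Entering the 6 arrays singly called 4, with Tap1 added (limma adjusted p = 0.0434), against 8.67%, though traced and untraced arrays of a surgery may share mice. Leaving out the endothelial sham array left none called: Nlrc5 then differed by -1.80, Psmb8 by -1.79 and Psmb9 by -2.10. Over all 6 arrays, the bioB control differed by -2.18, which is of similar size. The bioC, bioD and cre controls differed less, by -0.86, -0.28 and -0.23. The part of these control differences in the gene differences was not tested.

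In endothelial cells, TAC was compared with sham on 1 array each, without a test. Nlrc5 was 4.50-fold lower after TAC, a difference of -2.17, and was the only one of the 10 genes past 2-fold, where 1.83% of all 11157 genes were 2-fold lower and 10.9% were 2-fold higher. The other 9 genes were lower by smaller amounts: Psmb9 differed by -0.57, Tap2 by -0.53, Tapbp by -0.41, H2-D1 by -0.40, H2-K1 by -0.37, Tap1 by -0.31, Psmb10 by -0.27, B2m by -0.22 and Psmb8 by -0.09. All 10 were thus below 0 on this array pair, as were 36.9% of all genes, while 63.1% of all genes were above 0. At 1.5-fold, Nlrc5 was again the only one, where 7.64% of all genes were lower. Their median was -0.39, against 0.18 for all genes.

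Other transcripts moved on the same pair of arrays. The 10 fibroblast markers were all at least 2-fold higher on the endothelial TAC array, from 1.10 to 5.55 with a median of 3.80, led by Postn and Col1a1. The 12 endothelial markers differed by -0.45 to 0.28, with a median of -0.25, so Nlrc5, and by less Psmb9 and Tap2, lay below their range. The 6 detected cardiomyocyte markers were lower, with a median of -1.20, and the 8 mural markers had a median of -0.74. The 7 detected macrophage and dendritic cell markers had a median of 0.92, with 3 at least 2-fold higher and 1 below 0. Among all genes 10.9% were 2-fold higher. The part of these other cell types' transcripts in the Nlrc5 difference was not tested.

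In fibroblasts, TAC was compared with sham within the traced and within the untraced arrays, again without a test. No gene of the 10 was 2-fold higher in both populations (4.33% of 11623 genes were) and none was 2-fold lower in both (1.79% were). At 1.5-fold, Psmb9 alone was lower in both, where 4.86% of all genes were, and none was higher, where 8.90% were. Below 0 in both populations at any size were 8 of the 10 genes, against 32.7% of all genes, with Tap1 and B2m as the exceptions. Tap1 was the 1 gene above 0 in both, as were 44.0% of all genes. The median difference, averaged over both populations, was -0.35 for the 10 genes and 0.05 for all genes.

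Averaged over both populations, the immunoproteasome genes had the largest differences among those that were lower on the brightest probe set. In traced fibroblasts alone, H2-D1 and Nlrc5 differed more than Psmb8. Averaged over both populations, the mean of Psmb8's 2 probe sets differed by -0.36, but its second probe set was above the median on no array. Psmb9 differed by -0.94 in traced and -1.13 in untraced fibroblasts, or 1.92-fold and 2.19-fold lower after TAC. Psmb10 differed by -0.58 and -0.99, and Psmb8 by -0.43 and -0.79. For 8 of the 10 genes, these 3 subunits included, both TAC fibroblast arrays lay below both sham fibroblast arrays, as they did for 26.2% of all genes. B2m overlapped, and Tap1 lay above, as did 34.0% of all genes. Between the populations, the TAC differences of all genes had a median gap of 0.191 and a 95th percentile gap of 0.669, which describes how closely paired arrays repeat each other, apart from anything that arrays of 1 surgery share.

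Nlrc5 differed by -0.48 in traced and -0.59 in untraced fibroblasts, 1.40-fold and 1.51-fold lower after TAC, with its traced sham level close to its untraced TAC level. H2-D1 differed by -0.49 and -0.34, H2-K1 by -0.36 and -0.22, Tapbp by -0.28 and -0.27, and Tap2 by -0.17 and -0.31, in traced and untraced fibroblasts. Whether the Nlrc5 difference is larger in endothelial cells than in fibroblasts was not tested. B2m differed by -0.09 in traced and 0.20 in untraced fibroblasts, so its populations disagreed in sign. Over the 10 endothelial markers detected in fibroblasts, the TAC difference had a median of -0.59 and all were below 0. The 8 mural markers had a median of -0.92 in fibroblasts, and 5 of them were below 0. Of these 8 markers, 4 were at least 2-fold lower in both populations, where 1.79% of all genes were. The part of endothelial and mural transcripts in these values was not tested.

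Tap1 went the other way in fibroblasts on its brightest probe set. It was 0.89 higher after TAC in traced and 0.54 higher in untraced fibroblasts, or 1.85-fold and 1.46-fold, and both TAC arrays lay above both sham arrays. The second Tap1 probe set above the array medians, which the annotation lists under the same accession, had 6.88 and 6.79 in traced and untraced fibroblasts after TAC, against 7.15 and 7.01 at sham, differences of -0.26 and -0.21. In endothelial cells both probe sets were lower after TAC, by -0.31 and -0.37. The second probe set lay close to the medians of the fibroblast arrays, 6.74 to 6.82, while the brightest read 8.43 to 9.51 there. The direction in fibroblasts therefore depends on the probe set. The neighbours Psmb9 and Psmb8, on either side of Tap1 on chromosome 17, were lower.

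**Figure D4:**
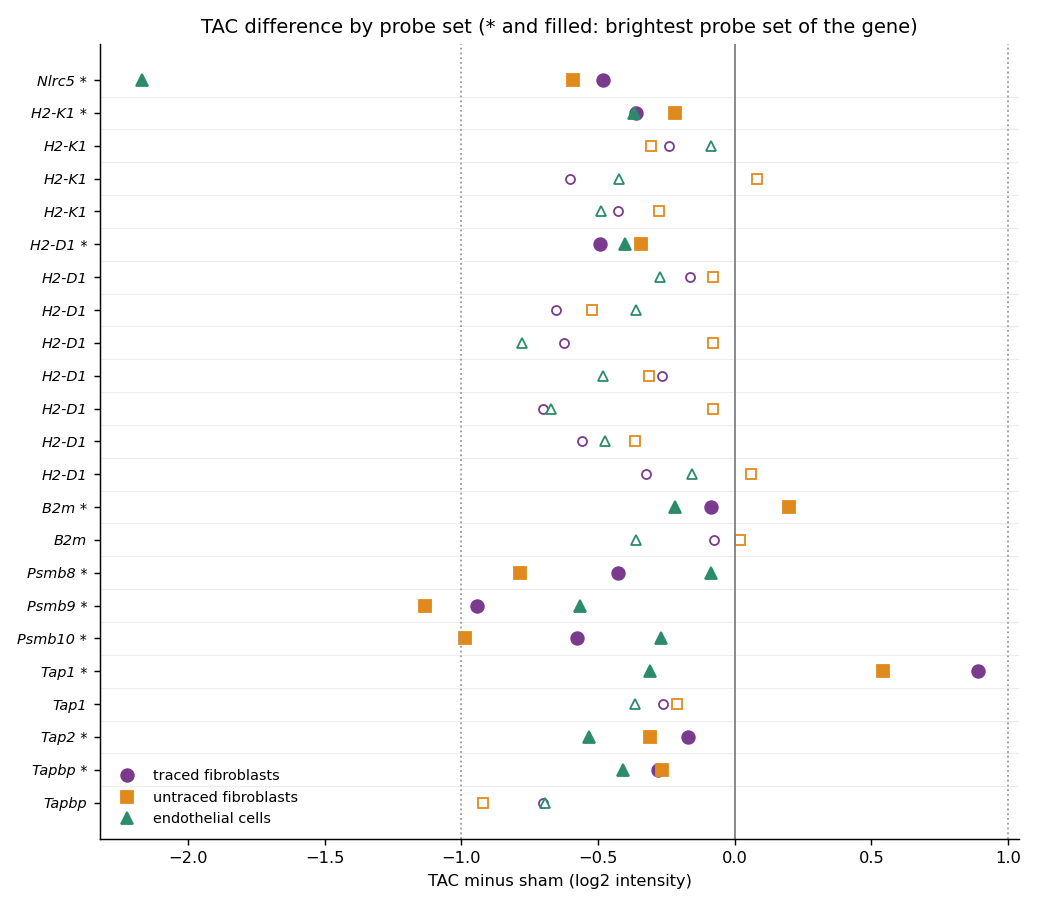
TAC minus sham difference in log2 intensity (x axis) for the 23 probe sets of the 10 genes above the array median on at least 1 array, 1 line each; circles are traced fibroblasts, squares untraced fibroblasts and triangles endothelial cells, filled symbols mark the gene's brightest probe set, and dotted lines mark 2-fold. Points lie mostly left of 0, with Nlrc5 in endothelial cells at -2.17 and the brightest Tap1 probe set at 0.89 and 0.54 in fibroblasts.

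Several genes had more than 1 probe set, and these allow the heavy chain results to be read more closely. Of the 27 probe sets, 23 lay above the array median on at least 1 array: 22 of them were lower after TAC in traced fibroblasts, 18 in untraced fibroblasts and 23 in endothelial cells. Among all 23182 such probe sets with 1 symbol, 43.2%, 51.2% and 40.4% were lower in the same populations. H2-D1 and H2-K1 supply 12 of the 23, so these are not independent counts. The 8 such H2-D1 probe sets differed by -0.70 to -0.16 in traced fibroblasts, -0.52 to 0.06 in untraced fibroblasts and -0.78 to -0.16 in endothelial cells. The 4 H2-K1 probe sets differed by -0.60 to -0.24, -0.31 to 0.08 and -0.49 to -0.09 in the same order of populations. Most carry the suffix of probe sets that can bind related transcripts, so H2-K1, H2-D1 and other class I heavy chains may share signal, which was not tested. Black Swiss mice are outbred and these genes are polymorphic, so sequence differences between the TAC and sham mice and differences in transcript level cannot be told apart on them. The second Tapbp probe set had larger differences than the brightest, of -0.70, -0.92 and -0.69 in traced fibroblasts, untraced fibroblasts and endothelial cells.

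Traced and untraced fibroblasts were compared to ask whether Tie2cre lineage goes with presentation. None of the 10 genes was 2-fold apart in the same direction at both surgeries, as were 0.0344% of all genes in each direction, and none was 1.5-fold apart, as were 0.361% of all genes upward and 0.344% downward. Traced minus untraced, the median was -0.11 after TAC and -0.07 at sham, against -0.07 and -0.11 for all genes. Nlrc5 had the largest differences in this direction, at -0.47 after TAC and -0.58 at sham, both on dim values. Tap1 had -0.18 and -0.53 on its brightest probe set but 0.09 and 0.14 on the second, and H2-K1 had -0.23 and -0.08. At any size 6 genes were lower in traced cells at both surgeries, and 47.3% of all genes were.

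Other genes of the pathway and its regulation were taken from lists written from textbook knowledge. Among the other class I heavy chains, 9 of 18 were measured and 6 detected, and H2-T24, a nonclassical heavy chain, was the only one called between cell types. It stood at 8.91 in both fibroblast populations after TAC and at 8.49 and 8.37 in traced and untraced fibroblasts at sham, against 10.61 and 11.88 in endothelial cells after TAC and at sham. The cell types did not overlap, and the fitted difference was -2.57 ± 0.498 (SE, limma adjusted p = 0.0331). Its TAC difference was 0.42 in traced and 0.55 in untraced fibroblasts and -1.27 in endothelial cells. Among peptide loading and trimming genes 0 of 6 were called, with the tapasin-related gene Tapbpl nearest at -1.39 ± 0.335 (SE, limma adjusted p = 0.0545), and 3 of the 6 lay below 0 in fibroblasts and 2 of 6 in endothelial cells for TAC minus sham.

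The standard catalytic subunits did not share the direction of the immunoproteasome genes on the endothelial TAC array. Psmb5 differed there by 1.09, Psmb6 by 0.57 and Psmb7 by 0.25, and in traced and untraced fibroblasts by 0.38 and -0.15, 0.12 and -0.10, and 0.08 and 0.08. All 11 core subunit genes were above 0 in endothelial cells, from 0.13 to 0.87, with a median of 0.40 where that of all genes was 0.18. The median of the core list in fibroblasts was 0.11. These are 1 array against 1 and have no test.

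Among 22 detected regulators, Stat2, which carries the interferon signal to the nucleus, was the only one called between cell types, at -1.55 ± 0.350 (SE, limma adjusted p = 0.0473). Irf1, an interferon-induced activator of class I genes, differed by -0.74 ± 0.269 (SE, limma adjusted p = 0.130) between cell types, and its TAC difference was 0.54, 0.43 and -0.09 in traced fibroblasts, untraced fibroblasts and endothelial cells. Rfx5, the X box protein, differed by 0.65 (limma adjusted p = 0.127), with TAC differences of 0.34, 0.22 and -0.02. Ezh2, a histone methyltransferase that is also known from dividing cells, was 2-fold higher after TAC in all 3 populations, by 1.19, 1.13 and 2.25.

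The interferon gamma list, GTPases and chemokines, had the lowest endothelial median after TAC of the pathway lists. Between cell types 3 of 12 detected genes were called, all lower in fibroblasts: the T cell attractant Cxcl9 (-3.52), the tryptophan-degrading enzyme Ido1 (-2.73) and the GTPase Ifi47 (-2.50), with limma adjusted p = 0.0237, 0.00817 and 0.0185. Cxcl9 and Ido1 lay below the median on all 4 fibroblast arrays and passed the filter only through the endothelial arrays, so these calls are a description of that choice. After TAC, 11 of 12 were below 0 in endothelial cells and 6 were 2-fold lower, with a median of -0.94. The GTPase Iigp1, which acts on vacuoles of intracellular parasites, had 10.41 in endothelial cells after TAC and 12.59 at sham, Gbp6 had 9.15 and 10.91, and Igtp 10.65 and 12.08. The chemokine gene Cxcl10 was the exception, with 9.34 in endothelial cells after TAC and 7.43 at sham. In fibroblasts 3 of 10 were below 0 and the median was 0.26, with Cxcl10 2-fold higher in both populations, by 2.94 and 2.43.

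The type I interferon list also had called genes between cell types. Of its 17 detected genes 7 were called, all lower in fibroblasts, among them the antiviral genes Rsad2 (-4.19), Oas1a (-2.27) and Oas2 (-2.13), with limma adjusted p = 0.0184, 0.0283 and 0.0211. In endothelial cells 0 of 16 were 2-fold apart after TAC in either direction, with a median of -0.29, and Oasl2 had the largest difference at -0.82. In fibroblasts 2 of 17, Rsad2 and Usp18, were 2-fold higher in both populations, and the median was 0.38. Psmb8, Psmb9 and Psmb10 lay on the other side of 0 in the same fibroblast arrays.

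Among MHC class II genes, Ciita lay between 5.62 and 5.88 and below the median of every array. H2-Ab1 and Cd74, a class II chain and the invariant chain, were called at -1.86 and -1.82 (limma adjusted p = 0.0244 and 0.0454). H2-Aa was the 1 of 4 detected genes at least 2-fold lower after TAC in both fibroblast populations, by -1.21 and -1.08. Cd274, which encodes the checkpoint ligand PD-L1, had 6.28 and 6.42 in traced and untraced fibroblasts after TAC and 6.69 and 6.87 at sham, against 8.49 and 10.65 in endothelial cells after TAC and at sham, so its TAC difference in endothelial cells was -2.16. The fitted cell type difference of Cd274 was -3.00 ± 0.758 (SE) and was not called (limma adjusted p = 0.0610). Its fibroblast values were dim, below the array median except on the untraced sham array, where it lay just above. Cd80, a costimulatory ligand, was called in the other direction at 3.21 (limma adjusted p = 0.0331), but it lay below the median on both endothelial arrays and passed the filter only through the fibroblast arrays.

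**Figure D5:**
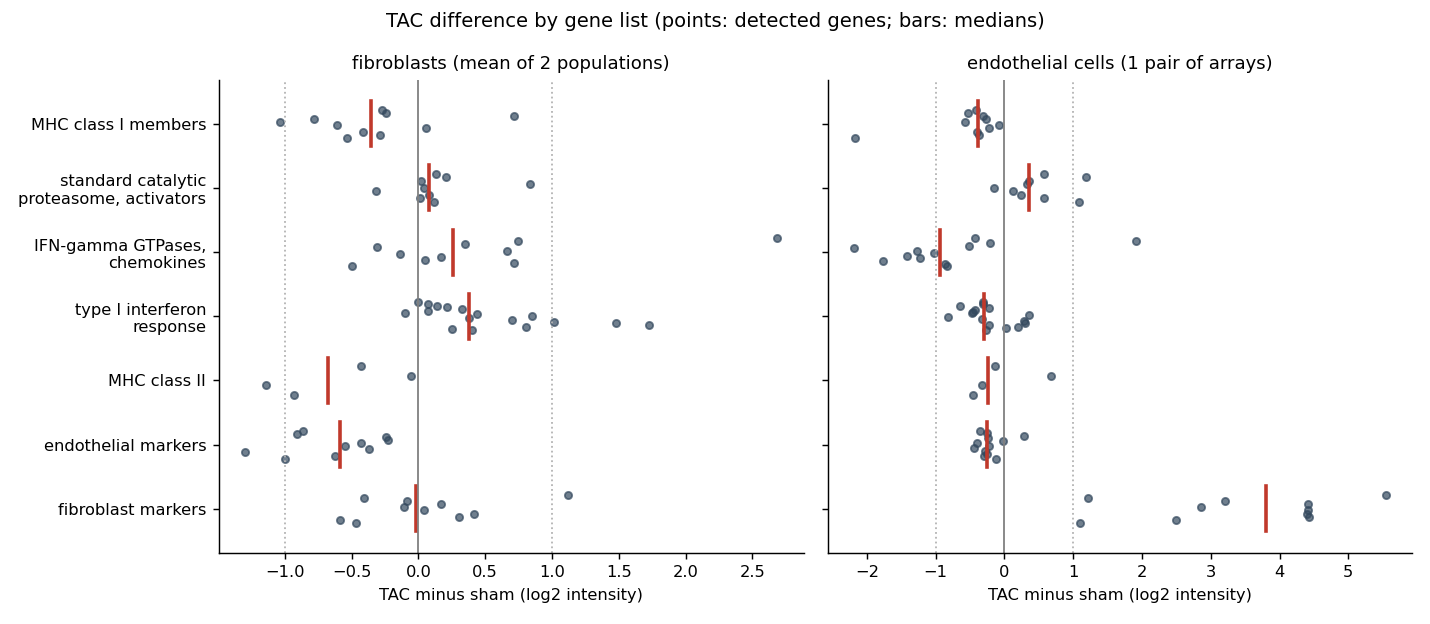
TAC minus sham difference in log2 intensity for the detected genes of each list, with fibroblasts (mean of both populations) and endothelial cells in separate panels; points are genes, red bars medians, and dotted lines 2-fold. Among the lists drawn, the endothelial median is -0.94 for the interferon gamma list. It is 0.36 for the standard catalytic proteasome subunits, activators and assembly factors.

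Genes whose levels ran most like those of Nlrc5 over the 6 arrays were sought among 6750 detected genes that spanned at least 1 log2 unit. By Pearson r, which is descriptive over 6 arrays that fall into 2 cell types, the 5 nearest were the DNA repair gene Msh5 (0.996), Cd274 (0.995), the extracellular sulfatase gene Sulf2 (0.993), Lnx1 (0.991) and Phf21b (0.991). Of the listed genes, Gbp2, Igtp, Irgm2 and the cardiomyocyte gene Tnni3 were also among the 50 highest. Msh5, Phf21b and Tnni3 lay below the median on every fibroblast array and passed the filter only through endothelial arrays. For Msh5 this was the endothelial sham array alone. Cd274 lay below the median on every fibroblast array except untraced sham. The 9 other presentation genes had r with Nlrc5 between 0.747 for Tap1 and 0.969 for H2-K1. The mean of those 9 genes ran most like Ripply3 (0.999), Ppp2r5a (0.998), Cavin1 (0.998), Mtus1 (0.997) and Pacc1 (0.997).

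Position was the last property compared. On GRCm38.p6, 7 of the 10 genes lie on chromosome 17, 2 on chromosome 8 (Nlrc5 and Psmb10) and 1 on chromosome 2 (B2m). Psmb9 (34182030 to 34187330), Tap1 (34187556 to 34197225), Psmb8 (34198195 to 34201454) and Tap2 (34204479 to 34216321) follow each other on chromosome 17. No other protein-coding gene of the reference table lies between them. Within this row the fitted cell type differences ran -2.38, -1.01, -1.84 and -0.26, so called and uncalled genes alternate. Outside the 10 genes, Ring1 beside H2-K1 was the only immediate protein-coding neighbour called among those that passed the filter. It differed by 1.04 (limma adjusted p = 0.0460), higher in fibroblasts.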

How the data were processed

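RNA of 6 sorted cell populations, 1 array each, was measured on an Affymetrix mouse array. The deposited intensity values of 45101 probe sets are on a linear scale, and the submitters' processing notes name RMA (background subtraction, between-array normalization and probe summary); its version is not given in the sources used here. Labelling started from 200 ng of RNA, per the labels' protocols. From these values log2 was taken with no further normalization. The number of arrays limits the precision.

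Symbols came from the platform annotation, updated through gene identifiers (99.4% found): 34958 probe sets had exactly 1 symbol, 932 several and 9211 none. The 3 probe sets with several symbols that include one of the 10 genes were left out. Of a gene's probe sets, the one brightest on average was used. The cell type test used lmFit and eBayes of limma 3.58.1 (R 4.3.3) after averaging the traced and untraced arrays of a surgery, with 2 residual degrees of freedom and Benjamini-Hochberg adjustment over 12257 genes; the procedure was tested on simulated data. Comparisons of TAC with sham and of lineage set 1 array against 1 and have no test. The 10 genes, the gene lists and the tests were chosen with earlier results of these data known. Named genes were the 10 genes, up to 5 of each list by size of difference, and Ciita, Irf1, Rfx5, Psmb5, Psmb6 and Psmb7 always. Names from the promoter pair and neighbouring genes were added after their values were seen. Alternatives covered normalization, a pseudocount of 16, the probe set rule, the filter, a surgery block, arrays entered singly, arrays left out and a 1.5-fold threshold. No pair of arrays held identical values.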

Additional observations from a re-analysis of the deposited data

Results flagged for a closer look

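Tap1 moved in opposite directions in the 2 cell types on its brightest probe set. TAC minus sham was 0.72 as the mean of both fibroblast populations, each above 0, and -0.31 in endothelial cells, on the log2 scale. Each side rests on 1 array per group, and the difference between the cell types was not tested. The second, dimmer Tap1 probe set did not share this. Its differences were -0.26 in traced fibroblasts, -0.21 in untraced fibroblasts and -0.37 in endothelial cells.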

How the results depend on the processing

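Of the counts of genes past a threshold, 75 values under alternatives stayed within 1.5 times the reported count and 7 did not. The 2 genes called lower in fibroblasts became 4 with the 6 arrays entered singly. The count became 1 without probe sets suffixed _x_at, _s_at or _a_at, which removes Psmb8, whose brightest probe set ends in _a_at. Leaving out 1 array at a time gave 0 to 2: 1 without the endothelial TAC array and 0 without the endothelial sham array. The count of genes 2-fold lower in both fibroblast populations after TAC, reported as 0, was 1 (Psmb9) after quantile normalization, at 1.5-fold and without the traced arrays. Each group has 1 array, so replicate numbers pair no samples beyond surgery; surgery as a replicate block gave 3 called genes, with 2298 genes higher in fibroblasts and 1114 higher in endothelial cells, against 1415 and 797 without it. Entering arrays singly gave 2211 and 1063, and leaving out the endothelial sham array 685 and 472. The cell type difference of Tap2 ranged from -0.53 to 0.00799 when 1 array was left out, reversed without that array (limma adjusted p = 0.987). Over all alternatives Nlrc5 ranged from -3.97 to -1.80 with limma adjusted p from 0.00543 to 0.0849, Psmb9 from -2.66 to -2.10 with 0.00225 to 0.114, and Psmb8 from -1.93 to -1.51 with 0.00222 to 0.0794. The cause of these shifts was not tested. The mean of all probe sets gave no value for Tap1, which then failed the filter, and leaving out suffixed probe sets gave none for H2-K1, B2m, Psmb8 and Tap2. With 2 values per cell type the fit has little power, and dim Nlrc5 values in traced fibroblasts limit its folds.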
